A study of Homo sapiens with 48 samples.

Results

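NOTCH2(S2156A) and NOTCH2(R2400*) tumours differ in which change the expressed receptor carries, a point substitution or a late truncation. The comparison holds 6 of the 48 libraries, namely the 3 titled for S2156A and the 3 titled for R2400, and all 34843 gene rows of the deposited files were used. Both groups are xenografts of U2932, a human diffuse large B-cell lymphoma line, made to express 1 NOTCH2 variant stably. They grew in NSG mice, a strain without T, B and NK cells, which were given CHOP (cyclophosphamide, doxorubicin, vincristine and prednisone), and tumours were taken at 1 cm3. The 3 NOTCH2(Q2140*) and the 3 NOTCH2(WT) tumours had the same host, treatment and size and are given beside them as context. Whether the lines are single clones, which promoter drives the transgene and whether the cells keep their own NOTCH2 is not stated, and there is no tumour without CHOP in the comparison. The variant and any other difference between the lines that carry it cannot be told apart in this design. The calls below are differences between tumour groups. The labels call the libraries biological replicates and say no more, so a p-value here compares 3 libraries with 3. The spread behind the p-values and standard errors (SE) is that between replicate libraries, pooled with the Q2140 and NOTCH2(WT) tumours. It is not the spread of the compared groups alone.

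NOTCH2 is a receptor that is cut when a neighbouring cell presents a DLL or JAG ligand. The freed intracellular part enters the nucleus, binds the DNA-binding protein RBPJ and switches on genes such as HES1, HEY1, NRARP and DTX1. In mature B cells NOTCH2 is known for directing marginal-zone fate, and lymphomas carry truncations that remove the degradation-prone PEST tail of the protein. KLHL6, a B-cell adaptor of the CUL3 ubiquitin ligase, is the other gene the study manipulates.

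The positions of the changes were read from the reference coding sequence, because the comparison turns on how much of the tail each variant keeps. Each line gives 33 bases of transcript NOTCH2-201 (GENCODE 29, GRCh38), all in exon 34 of 34 on the minus strand of chromosome 1, with the affected codon in capitals. S2156A lies at chr1:119916239-119916271, R2400 at chr1:119915507-119915539 and Q2140 at chr1:119916287-119916319.
S2156A site: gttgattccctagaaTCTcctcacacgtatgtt
R2400 site: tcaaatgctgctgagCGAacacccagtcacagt
Q2140 site: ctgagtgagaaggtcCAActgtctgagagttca
The substitution replaces a serine by alanine and keeps all 2471 residues. The stop at R2400 leaves 2399 residues and removes 72, so the serine changed in S2156A is still in that protein. The stop at Q2140 removes 332 residues, that serine among them.

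The 6 libraries held 12.7 to 15.9 M reads. The S2156A libraries lay close together, and the R2400 libraries did not. On the leading axis of a principal component analysis of the 12 tumours expressing NOTCH2(WT) or a variant (33.8% of the variance) the S2156A libraries were at 27.5, 27.2 and 27.9. R2400 replicates 1 and 3 were at 0.594 and 1.48, while R2400 replicate 2 was at 16.2, between them and the S2156A tumours. Chi-square per degree of freedom between replicates, which is 1 for counting noise alone, was 1.33 to 1.96 in S2156A and 3.36 to 4.83 in R2400 tumours. Results below are given with R2400 replicate 2 and, where it matters, without it.

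NOTCH2 itself was lower in S2156A tumours. It had 15505, 17569 and 16875 normalised read counts in S2156A tumours, against 23923, 29381 and 26094 in R2400 tumours. Every S2156A library was below every R2400 library. The log2 difference was -0.67 ± 0.07 (SE, adjusted p = 3.85e-05), which makes R2400 1.59 times S2156A. Q2140 tumours averaged 59619 ± 4181 and NOTCH2(WT) tumours 15858 ± 567 (SD, n = 3 each), so R2400 lay between NOTCH2(WT) and Q2140. Against NOTCH2(WT) the log2 difference was 0.07 for S2156A (adjusted p = 0.588) and 0.73 for R2400 (adjusted p = 7.75e-06). The counts do not separate the transgene from the cells' own NOTCH2 (chromosome 1, 119911553 to 120069626). In tumour RNA fewer cells with a transcript and less of it per cell cannot be told apart, here and in all that follows.

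KLHL6 (chromosome 3) did not pass the test between the variants. It had 15711, 15937 and 16091 normalised read counts in S2156A tumours, and 15547, 15039 and 16356 in R2400 tumours, so the groups overlapped. The log2 difference was 0.03 ± 0.07 (adjusted p = 0.89).

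Of the 36 tested genes that build the NOTCH pathway (receptors, ligands, cleaving enzymes, nuclear partners), 3 were called higher and 3 lower in S2156A tumours, where 4.76% of all 15354 tested genes were called at an adjusted p under 0.05. NOTCH1, the receptor paralogue, APH1A, a gamma-secretase subunit, and FURIN, the protease that matures the receptor, were higher. NOTCH2, MIB2, a ubiquitin ligase that activates NOTCH ligands, and KAT2A, an acetyltransferase coactivator, were lower. MIB2 had 218, 247 and 262 normalised read counts in S2156A tumours, against 389, 348 and 358 in R2400 tumours (log2 -0.59 ± 0.09, adjusted p = 0.000227). The groups did not overlap, and with NOTCH2 it was 1 of the 2 calls of this list that held in all 15 alternative analyses. FURIN (log2 0.34 ± 0.07, adjusted p = 0.00817) lost its call only without S2156A replicate 2 (adjusted p = 0.0653). NOTCH1, APH1A and KAT2A, which lie outside the rule for named genes and were named after their values were seen, were less firm. NOTCH1 lost its call without S2156A replicate 2 or 3 or R2400 replicate 3 (adjusted p = 0.0567 to 0.0853), and APH1A without any 1 S2156A library or R2400 replicate 1 (0.0545 to 0.139). KAT2A lost its call without any 1 S2156A library, R2400 replicate 1 or 3, or without the expression filter (adjusted p = 0.0645 to 0.196).

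None of the 13 tested genes of the NOTCH target list passed the test. HES1, the transcriptional repressor most used as a NOTCH readout, had 474, 463 and 490 normalised read counts in S2156A tumours, against 483, 599 and 495 in R2400 tumours (log2 -0.14 ± 0.08, adjusted p = 0.40). The groups overlapped, since S2156A replicate 3 was above R2400 replicate 1, and R2400 replicate 2 stood above the rest. DTX1, an E3 ligase and feedback regulator, was at 3714 ± 114 in S2156A and 3677 ± 171 in R2400 tumours (SD, n = 3 each; log2 0.02 ± 0.05, adjusted p = 0.92). HES6, a HES-family factor, had 384, 372 and 406 in S2156A tumours, against 489, 436 and 441 in R2400 tumours. These did not overlap, and the gene came nearest to the threshold (log2 -0.23 ± 0.07, adjusted p = 0.07), passing it only without R2400 replicate 2 (adjusted p = 0.0458).

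None of the remaining members passed either. CR2, the complement receptor of marginal-zone B cells, averaged 376 in S2156A and 382 in R2400 tumours, and NRARP, the NOTCH-induced feedback inhibitor, 38.8 and 42.7. IL2RA, the interleukin 2 receptor alpha chain, had the highest positive difference, with 423, 394 and 379 in S2156A tumours against 223, 251 and 368 in R2400 tumours (log2 0.53 ± 0.24, adjusted p = 0.26). The groups did not overlap, but R2400 replicate 3 was near the S2156A libraries and the other R2400 libraries were lower. HES7, a HES-family repressor at low level, also did not overlap, with 17.9, 19.1 and 27.4 in S2156A tumours against 15.2, 13.4 and 17.8 in R2400 tumours (log2 0.41 ± 0.28, adjusted p = 0.46). Over the 13 genes the median log2 difference was -0.02, with -0.54 for PTCRA and 0.53 for IL2RA as extremes, beside a median of -0.0039 over all tested genes. HEYL, NOTCH3 and GATA3 were below the expression filter, with at most 8.07 normalised read counts, and HES4 and HES5 had no row. SEMA7A, HEY1, HEY2, CCND1 and TCF7 completed the list.

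**Figure D1:**
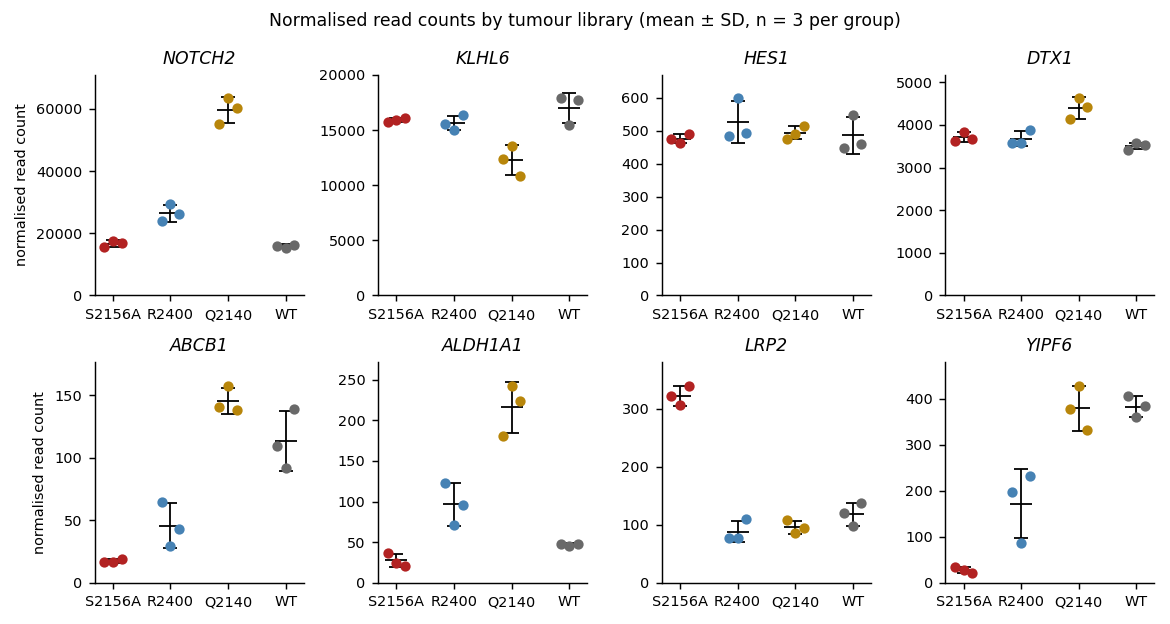
Normalised read counts (vertical axes, linear from 0) of 8 genes in the 12 tumour libraries, by the NOTCH2 variant expressed (horizontal axes). Points are libraries and bars the mean ± SD of 3. NOTCH2 is lowest in S2156A and NOTCH2(WT) tumours, KLHL6, HES1 and DTX1 show little difference between S2156A and R2400, and ABCB1, ALDH1A1 and YIPF6 are lower and LRP2 higher in every S2156A library than in every R2400 library.

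Because RBPJ binds GTGGGAA, the promoters of the called genes were searched for these letters on both strands (300 bases from 250 before the start, RefSeq, GRCh38.p14). Among genes called higher in S2156A tumours 6 of 150 promoters held it (4%), among those called lower 11 of 230 (4.78%), and among all tested genes with a listed promoter 372 of 7042 (5.28%). HES1, which was not called, carries 1 copy and is shown for orientation (chr3:194135898-194136197, plus strand, the motif in capitals).
HES1 promoter: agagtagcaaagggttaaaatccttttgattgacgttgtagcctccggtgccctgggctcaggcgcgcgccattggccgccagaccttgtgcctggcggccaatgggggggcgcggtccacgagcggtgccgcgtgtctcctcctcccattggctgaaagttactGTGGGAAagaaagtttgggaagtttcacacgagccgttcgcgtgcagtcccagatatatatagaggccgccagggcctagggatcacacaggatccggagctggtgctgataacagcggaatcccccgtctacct

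Over all genes, 731 were called (296 higher, 1.93%, and 435 lower, 2.83%, in S2156A tumours). Most differences were small, with a median absolute log2 difference of 0.35 among them. Differences of 2-fold or more were 102 (0.664%), of which 15 were higher (0.0977%) and 87 lower (0.567%) in S2156A tumours, and 77 of the 102 had a mean under 50 normalised read counts. Groups did not overlap for 718 of the 731, beside 24.5% of all tested genes. Without R2400 replicate 2 the count was 1051 (6.85%), and without 1 of the other 5 libraries it was 255 to 624. R2400 replicate 2 was the R2400 library closest to S2156A for 369 of the 718 genes (51.4%), replicate 3 for 257 (35.8%) and replicate 1 for 92 (12.8%). The same shares over all tested genes were not counted.

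**Figure D2:**
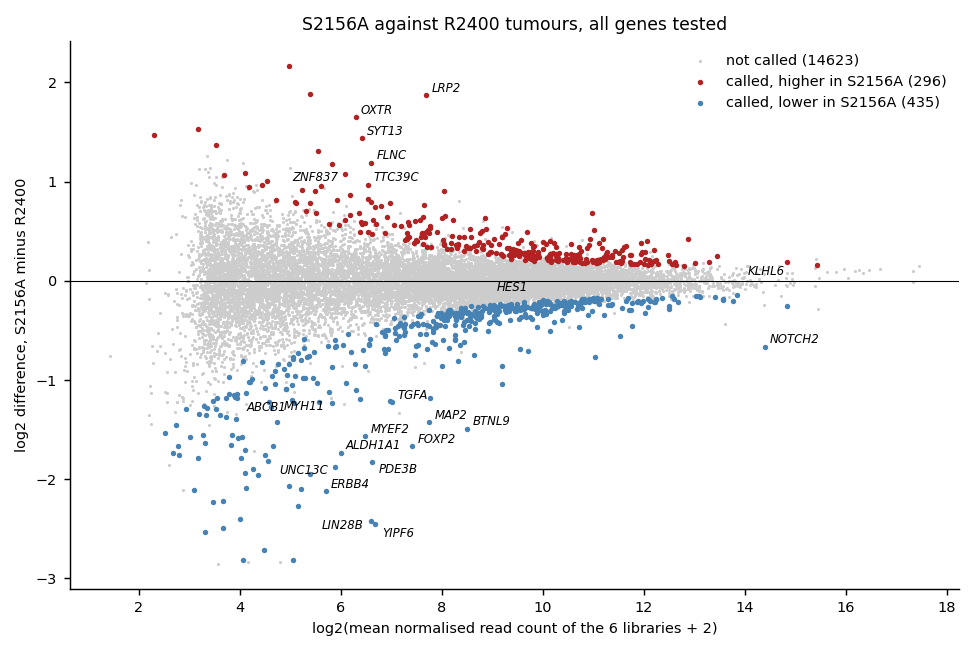
Log2 difference, S2156A minus R2400, of all 15354 tested genes (vertical axis) by their mean level in the 6 libraries (horizontal axis, log2). Red points are the 296 genes called higher and blue points the 435 called lower in S2156A tumours. The 12 largest falls among genes at 50 or more reach further from 0 than the 12 largest rises, and KLHL6 and HES1 lie in the grey band.

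The 12 largest falls in S2156A tumours among genes at 50 or more were YIPF6, LIN28B, ERBB4, UNC13C, PDE3B, ALDH1A1, FOXP2, MYEF2, BTNL9, MAP2, MYH11 and TGFA. Only called genes whose groups did not overlap could enter the largest falls and rises, so that separation is part of the choice. YIPF6 (chromosome X, 68498323 to 68537285), a Golgi membrane protein, had 33.7, 28.7 and 21.1 normalised read counts in S2156A tumours, against 197, 87.4 and 232 in R2400 tumours. LIN28B (chromosome 6, 104936616 to 105083332), an RNA-binding protein that blocks the maturation of let-7 microRNAs, had 30.5, 28.7 and 25.3, against 169, 123 and 195. Both were low in each S2156A library, and R2400 replicate 2 was the lowest of the R2400 libraries without reaching them. The log2 differences were -2.45 ± 0.32 for YIPF6 (adjusted p = 0.0032) and -2.42 ± 0.16 for LIN28B (adjusted p = 1.74e-08).

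UNC13C, a protein that readies synaptic vesicles for release, had 25.2, 23.9 and 21.1 in S2156A tumours, against 86.1, 94.1 and 93.6 in R2400 tumours (log2 -1.88 ± 0.15, adjusted p = 1.64e-08). Here R2400 replicate 2 was with the other R2400 libraries. PDE3B, which breaks down cyclic AMP and cyclic GMP, had 41, 38.2 and 43.3, against 177, 122 and 155 (log2 -1.82 ± 0.17, adjusted p = 6.74e-06). FOXP2, a forkhead transcription factor best known from brain, had 78.9, 81.2 and 74.9, against 315, 194 and 265 (log2 -1.67 ± 0.12, adjusted p = 1.64e-08). For both genes the S2156A libraries were within a few counts of each other and well under the lowest R2400 library.

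MYEF2, a DNA-binding repressor named for the mouse myelin basic protein gene, averaged 43.7 ± 7.65 in S2156A and 132 ± 14.5 in R2400 tumours (log2 -1.56 ± 0.14). MAP2, a microtubule-associated protein of neurons, averaged 115 ± 19.3 and 313 ± 45.3 (log2 -1.43 ± 0.13). TGFA, a ligand of the EGF receptor, averaged 75.3 ± 4.46 and 179 ± 14.9 (log2 -1.22 ± 0.15; SD, n = 3 for each mean). All 3 genes held their call in the 15 alternatives, as did YIPF6, LIN28B, UNC13C, PDE3B, FOXP2 and ALDH1A1.

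ERBB4, BTNL9 and MYH11 were less firm. ERBB4, a receptor tyrosine kinase that binds neuregulins, had 12.6, 18.2 and 17.9 normalised read counts in S2156A tumours, against 106, 39.2 and 107 in R2400 tumours (log2 -2.12 ± 0.41, adjusted p = 0.0184). Its R2400 replicate 2 stood far under the other R2400 libraries, and the call was lost without any 1 S2156A library or without R2400 replicate 1 (adjusted p = 0.0623 to 0.0761), in edgeR (0.063) and without the expression filter (0.0526). BTNL9, a butyrophilin-like surface protein, averaged 183 ± 12 in S2156A and 539 ± 182 in R2400 tumours (SD, n = 3 each; log2 -1.49 ± 0.27, adjusted p = 0.0189), and its call was lost without any 1 of the libraries but R2400 replicate 2 (adjusted p = 0.0506 to 0.0727) and in a fit of the 6 libraries alone (0.0516). MYH11, the smooth-muscle myosin heavy chain, averaged 30.9 ± 8.40 and 78.1 ± 31.1 (log2 -1.23 ± 0.27, adjusted p = 0.0223), and lost its call without S2156A replicate 2 or 3 or R2400 replicate 1 or 3 (adjusted p = 0.0595 to 0.0849), or without the expression filter (0.0569). Without R2400 replicate 2 all 12 falls were called, and the difference was larger for 11 of them, from -1.24 for TGFA to -2.88 for YIPF6.

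The 12 largest rises at the same minimum included LRP2, OXTR, SYT13, FLNC, ZNF837, TTC39C, KSR1, CCT6B, FFAR1, GPT and ZNF43. LRP2 (megalin; chromosome 2, 169127109 to 169362685), an endocytic receptor of absorptive epithelia, had 322, 306 and 340 normalised read counts in S2156A tumours, against 77.1, 77.3 and 109 in R2400 tumours. The lowest S2156A library was far above the highest R2400 library (log2 1.87 ± 0.14, adjusted p = 8.35e-09, 3.67 times R2400). OXTR, the oxytocin receptor, had 121, 110 and 118, against 50.2, 33.6 and 26.7 (log2 1.65 ± 0.18, adjusted p = 2.49e-06). SYT13, of the synaptotagmin family of membrane-trafficking proteins, had 119, 131 and 119, against 36.8, 54.9 and 42.3 (log2 1.44 ± 0.18, adjusted p = 1.03e-05). R2400 replicate 2 lay between the other R2400 libraries for LRP2 and OXTR and was the highest of them for SYT13, still far under the S2156A libraries.

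FLNC, an actin cross-linker of muscle, averaged 133 ± 11.2 in S2156A and 57.5 ± 9.68 in R2400 tumours (log2 1.19 ± 0.16). KSR1, a scaffold of the RAF, MEK and ERK kinases, had 342, 362 and 328 in S2156A tumours, against 165, 194 and 192 in R2400 tumours (log2 0.90 ± 0.12, adjusted p = 3.48e-05). ZNF837, a zinc-finger protein, averaged 90.6 ± 10.2 and 41.7 ± 3.55, and TTC39C, a tetratricopeptide-repeat protein, 122 ± 6.06 and 61.7 ± 8.24 (SD, n = 3 for each mean). These 4 genes and ZNF43, another zinc-finger protein (log2 0.80 ± 0.15), held their call in every alternative.

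Of the smaller rises, CCT6B, GPT and FFAR1 were less firm. CCT6B, a testis chaperonin subunit (log2 0.87 ± 0.18), lost its call without R2400 replicate 1 (adjusted p = 0.0538). GPT, an alanine aminotransferase (log2 0.81 ± 0.20), lost it without S2156A replicate 2 or 3 or R2400 replicate 2 (adjusted p = 0.0821 to 0.128). FFAR1, a receptor for long-chain fatty acids (log2 0.83 ± 0.22), lost it without any 1 library but R2400 replicate 3 (adjusted p = 0.0813 to 0.147). Of the 24 genes, 17 held in every alternative, beside 172 of all 731 calls. Without R2400 replicate 2 all of the 24 but FFAR1 and GPT were called.

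The Q2140 and NOTCH2(WT) tumours place these genes differently. The genes were chosen for a large difference without overlap between S2156A and R2400, so their place beside other groups is partly set by that choice. The same shares over all tested genes were not counted. S2156A was below every Q2140 and every NOTCH2(WT) library for all 12 falls, and R2400 was below every NOTCH2(WT) library for 9 of them. LIN28B, for example, averaged 28.2 in S2156A, 162 in R2400, 403 in Q2140 and 392 in NOTCH2(WT) tumours, and UNC13C 23.4, 91.3, 169 and 233. The exceptions were ERBB4, ALDH1A1 and BTNL9, of which ALDH1A1 was higher in R2400 (96.4) than in NOTCH2(WT) tumours (47.3; log2 0.96, adjusted p = 0.00168) and lower in S2156A (27.6; log2 -0.77, adjusted p = 0.00612). Of the 12 rises, S2156A was above every Q2140 and NOTCH2(WT) library for 7, among them LRP2, OXTR, SYT13, FLNC, KSR1 and ZNF43. LRP2 averaged 322 in S2156A, 87.9 in R2400, 95.5 in Q2140 and 118 in NOTCH2(WT) tumours, whereas ZNF837 averaged 90.6, 41.7, 87.8 and 80.6, with R2400 the group that was low. The differences from NOTCH2(WT) share the same 3 libraries (2333 genes called for S2156A, 15.2%, and 1235 for R2400, 8.04%), so no overlap is drawn between them.

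**Figure D3:**
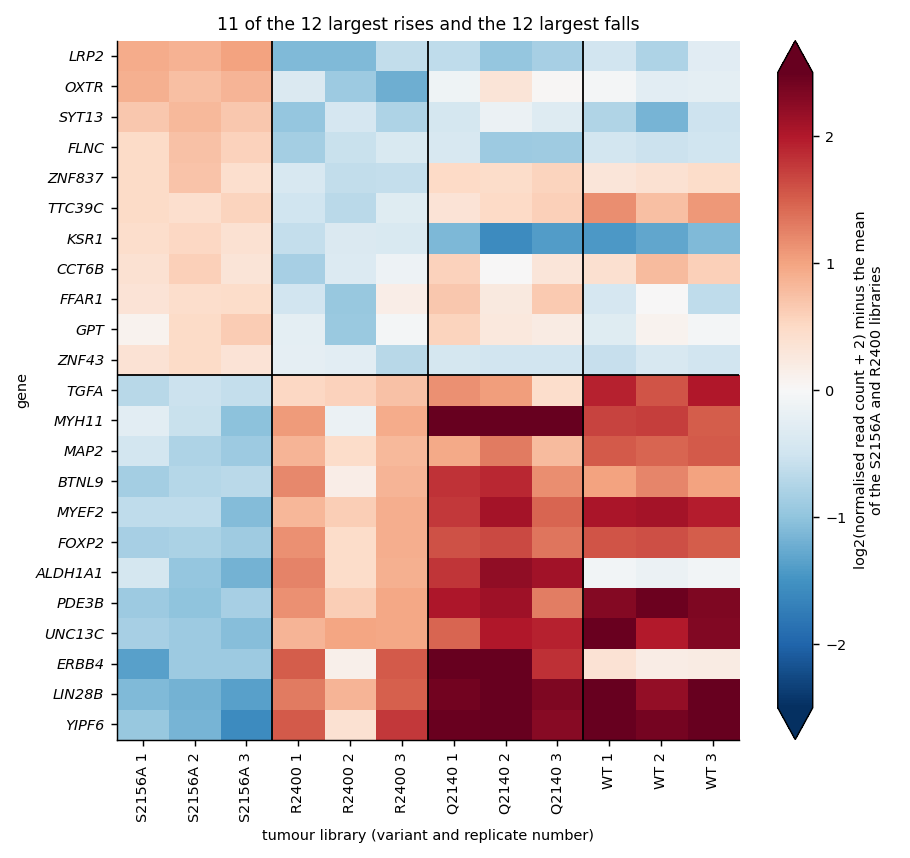
Log2(normalised read count + 2) minus the mean of the 6 S2156A and R2400 libraries (colour scale, red above and blue below) for 11 of the 12 largest rises (top) and the 12 largest falls (bottom), in the 12 tumour libraries (columns). In the falls the S2156A columns are the bluest, R2400 replicate 2 is the palest R2400 column for most genes, and the NOTCH2(WT) and Q2140 columns are mostly the reddest.

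Genes that set how cells handle the CHOP drugs were counted as a list. Of its 27 tested members none was higher and 2 were lower in S2156A tumours, beside 2.83% lower over all genes, and the median log2 difference was -0.01. ABCB1 (chromosome 7, 87503633 to 87713323), the P-glycoprotein pump that exports doxorubicin and vincristine, had 16.8, 16.2 and 19 normalised read counts in S2156A tumours, against 64.6, 29.1 and 43.5 in R2400 tumours. All S2156A libraries were low and alike, the R2400 libraries were spread, and the groups did not overlap (log2 -1.24 ± 0.21, adjusted p = 0.000688). Q2140 tumours averaged 146 and NOTCH2(WT) tumours 113, so both variants of the comparison were lower than NOTCH2(WT) (S2156A by -2.56, adjusted p = 3.48e-09, and R2400 by -1.32 log2, adjusted p = 0.000146). ALDH1A1, an aldehyde dehydrogenase that oxidises retinal and detoxifies an active form of cyclophosphamide, had 36.8, 24.8 and 21.1 in S2156A tumours, against 123, 70.6 and 95.8 in R2400 tumours (log2 -1.73 ± 0.19, adjusted p = 3.54e-06). Both calls held in all alternatives.

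In the 29 gene lists together, 586 different genes were tested and 57 were called, 32 higher and 25 lower in S2156A tumours (9.73%, beside 4.76% over all genes). The shares called that follow stand beside those same 4.76% (1.93% higher and 2.83% lower). The lists and all genes were not matched for expression level. Among genes with a value of 50 or more in 3 or more libraries, 713 of 11317 were called. Most of the 57 differences were small. Over all genes, 172 of the 731 calls held in every alternative that tested them, and 17 of the 57 list members did. They were NOTCH2, MIB2, ABCB1 and ALDH1A1, given above, and 13 genes that follow, namely CD70, CD44, IL10RA, LMO2, IFITM1, SLAMF7, HERPUD1, TRIB3, ATF3, PHGDH, SEC24D, HIF1A and BTG2. Without R2400 replicate 2, 73 list members were called (12.5%, beside 6.85%).

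Among the surface and signalling lists given here, only that of costimulation and activation molecules held called genes in both directions. Of 19 costimulation and activation molecules 1 was higher and 2 lower (15.8%). CD70, the ligand of the costimulatory receptor CD27, had 2198, 2274 and 2286 normalised read counts in S2156A tumours, against 1745, 1608 and 1693 in R2400 tumours (log2 0.42 ± 0.05, adjusted p = 8.63e-06), without overlap. SLAMF1 and SLAMF6, receptors of the SLAM family, fell by 0.48 ± 0.12 and 0.24 ± 0.07 on the log2 scale. SLAMF1 lost its call without any 1 S2156A library or R2400 replicate 1 (adjusted p = 0.0655 to 0.128), and SLAMF6 without the expression filter (0.0805) or any 1 library but R2400 replicate 2 (0.0788 to 0.26). Of 24 migration and adhesion genes only CD44, a hyaluronan receptor, was called (4.17%), at 2497 ± 27.7 in S2156A and 1921 ± 56.3 in R2400 tumours (SD, n = 3 each; log2 0.38 ± 0.06). Of 28 interleukin receptor and STAT genes 3 were higher (10.7%), of which IL10RA, the ligand-binding chain of the interleukin 10 receptor, held in every alternative (log2 0.36 ± 0.06).

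Of 17 germinal-centre genes 1 was higher and 2 lower (17.6%). LMO2, a transcription cofactor, had 521, 531 and 519 normalised read counts in S2156A tumours, against 396, 345 and 366 in R2400 tumours (log2 0.51 ± 0.10, adjusted p = 0.0032), without overlap. STAP1, an adaptor of B-cell receptor signalling, fell by 0.27 ± 0.06 on the log2 scale and lost its call without S2156A replicate 2 or 3 or R2400 replicate 1 (adjusted p = 0.0522 to 0.0812). MTA3, a repressor subunit that works with BCL6, fell by 0.20 ± 0.05 and lost it without any 1 library but R2400 replicate 2 (adjusted p = 0.0744 to 0.146). Of 24 interferon-stimulated genes 1 was higher and 2 lower (12.5%). IFITM1, a membrane protein that blocks viral entry, rose by 0.48 ± 0.07 log2 and held throughout. MX2, an antiviral GTPase, fell by 0.32 ± 0.07 on the log2 scale and lost its call without S2156A replicate 1 or R2400 replicate 1 (adjusted p = 0.0551 to 0.0576). BST2, which tethers budding virus, fell by 0.32 ± 0.08 and lost its call without any 1 library but R2400 replicate 2 (adjusted p = 0.0505 to 0.195).

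The plasma-cell list had 17 tested genes, with 2 called higher and 2 called lower (23.5%). SLAMF7, a surface receptor of plasma cells, rose by 0.44 ± 0.07 log2, and HERPUD1, of the machinery that clears misfolded endoplasmic reticulum proteins, fell by 0.29 ± 0.05 on the log2 scale. Of 20 ATF4 stress genes 3 were higher and 1 lower (20%). TRIB3, an ATF4 target that feeds back on ATF4, had 2494, 2406 and 2426 in S2156A tumours, against 1605, 1915 and 1629 in R2400 tumours (log2 0.51 ± 0.08, adjusted p = 0.000974). ATF3, a stress-induced transcription factor, rose by 0.47 ± 0.09 log2, and PHGDH, the entry enzyme of serine synthesis, fell by 0.26 ± 0.05. Of 20 endoplasmic reticulum and secretory genes 1 was higher and 1 lower (10%). The lower one, SEC24D, a cargo adaptor of COPII vesicles, had 891, 958 and 964 in S2156A tumours, against 1342, 1241 and 1414 in R2400 tumours (log2 -0.50 ± 0.06, adjusted p = 6.74e-06). Of 30 hypoxia and glycolysis genes 1 was called (3.33%), HIF1A, the oxygen-regulated subunit of HIF-1 (log2 0.26 ± 0.06). Of 22 p53 targets 2 were higher and 1 lower (13.6%). The lower one, BTG2, an antiproliferative gene that is also an immediate-early gene, had 3728, 3684 and 3690 in S2156A tumours, against 4732, 4534 and 4600 in R2400 tumours (log2 -0.32 ± 0.05, adjusted p = 7.32e-05), without overlap.

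Of 24 B-cell receptor signalling genes 3 were higher and none lower (12.5%), and none of these calls held in every alternative. BANK1 lost its call without S2156A replicate 1 or 2 or R2400 replicate 1 (adjusted p = 0.0576 to 0.0935). PTPN6 lost its call without any 1 S2156A library or R2400 replicate 2 (adjusted p = 0.0825 to 0.12). Of 26 DNA replication genes 3 were higher (11.5%; CDC6, E2F1 and CDT1, median over the list 0.09 log2), and of 25 mitosis genes MKI67 was higher and CCNA2 and CDC20 lower (12%). None of the 6 replication and mitosis calls was firm. CDC6 lost its call without any 1 S2156A library or R2400 replicate 1 (adjusted p = 0.0732 to 0.139). E2F1 (0.115 to 0.189) and CDC20 (0.0598 to 0.158) lost theirs without any 1 library but R2400 replicate 3, and E2F1 also in edgeR (0.056). CDT1 lost its call without any 1 library but R2400 replicate 2 (adjusted p = 0.139 to 0.24), under TMM scaling (0.0551) and at a pseudocount of 0.5 (0.0506). MKI67 lost it without S2156A replicate 2 or 3 or R2400 replicate 1 (adjusted p = 0.0728 to 0.0918), and CCNA2 without S2156A replicate 1 or 3 or R2400 replicate 1 (0.0732 to 0.0839). Of 17 MHC class II genes, which present peptides to helper T cells, 16 were below 0 in value (median -0.11 log2), and HLA-DMA alone was called, a call that was lost in DESeq2 (adjusted p = 0.0514) and without any 1 library but R2400 replicate 2 (0.0606 to 0.209). Among the 23 sterol synthesis genes 18 were below 0 (median -0.07) and none was called, and none of the 16 chemokine and cytokine genes or 13 mitochondrially encoded transcripts (median 0.11) was called. Over all tested genes 51% were below 0.

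**Figure D4:**
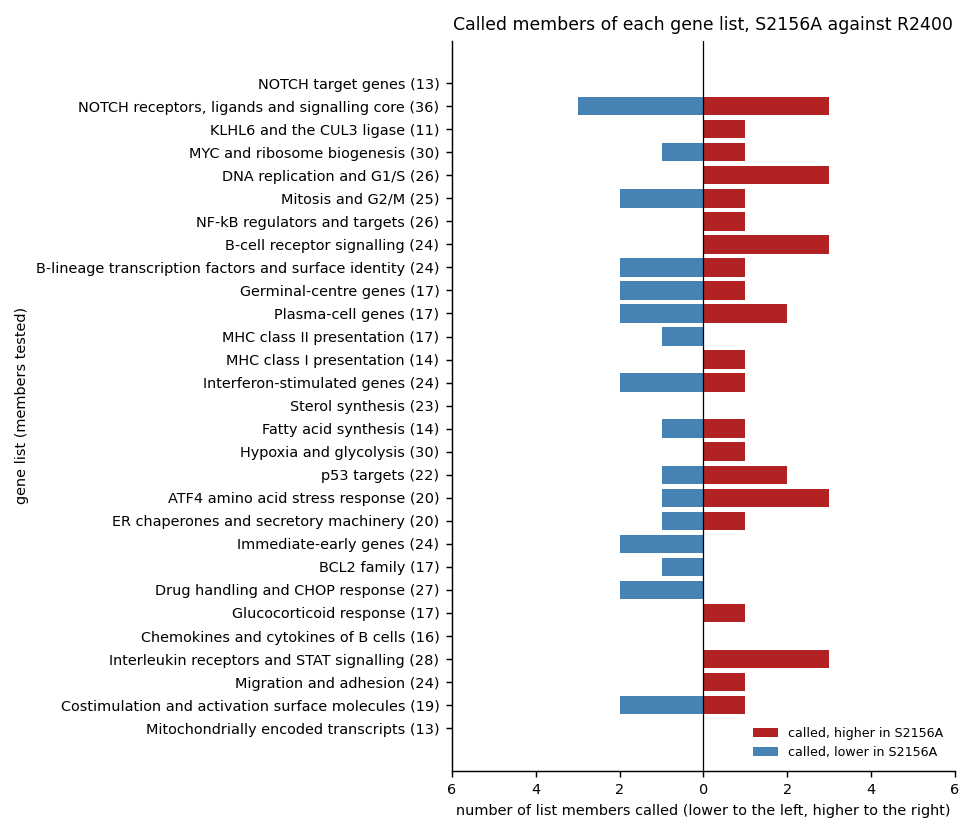
Number of members called lower (blue, left of 0) and higher (red, right of 0) in S2156A than in R2400 tumours for each of 29 gene lists, with the members tested in brackets. The NOTCH target, sterol synthesis, chemokine and mitochondrial lists have no bar, and the NOTCH core list has 3 on each side.

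By position, chromosome 2 had the highest share of called genes among the chromosomes, and most of its calls were lower in S2156A tumours. It was singled out after the values were seen, and the share itself was not tested. Of its 900 tested genes 69 were called lower and 8 higher (8.56%, beside 4.76%), with a median log2 difference of -0.08. Set against the mean of the 6 libraries, the chromosome's median was -0.04, -0.03 and -0.05 in S2156A tumours and 0.08, 0.01 and 0.04 in R2400 tumours, so all R2400 libraries were above all S2156A libraries and replicate 2 was nearest to them. The medians separated the same way on chromosomes 1, 6, 7, 13 and X, and the opposite way on chromosomes 16 and 20. On chromosome 2 the Q2140 tumours stood at 0.24 to 0.33, well above both, and the NOTCH2(WT) tumours at 0.0103, -0.0033 and -0.0009. Lower calls over all genes, 435 with every library, moved in the same direction as those on chromosome 2 when a library was left out. Without R2400 replicate 1 the lower calls on chromosome 2 were 19 (160 over all genes), and without R2400 replicate 2 they were 101 (607). Without 1 S2156A library they were 27 to 30 (182 to 200 over all genes), and without R2400 replicate 3 they were 53 (348). Of the 24 largest changes 4 lie on chromosome 2, ERBB4, MAP2 and TGFA among the falls and LRP2 among the rises.

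**Figure D5:**
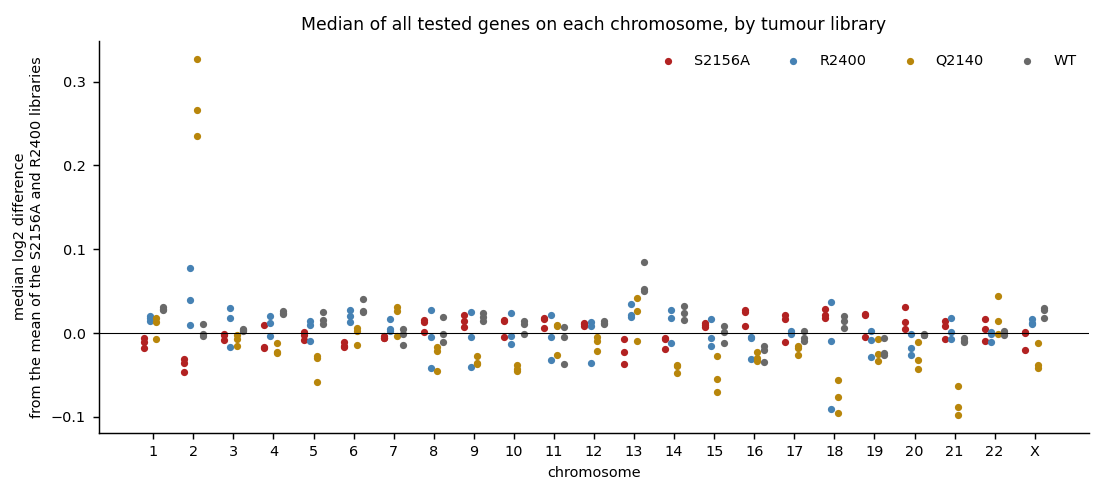
Median log2 difference from the mean of the S2156A and R2400 libraries over all tested genes of each chromosome (horizontal axis), 1 point per tumour library. On chromosome 2 the S2156A points are below 0, the R2400 points above 0 and the Q2140 points at 0.24 to 0.33.

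B-cell markers were high in all 6 libraries. The host is a mouse and reads were aligned to the human genome, so counts of human-named genes of other cell types do not measure how much host tissue a tumour held. The 12 B-cell markers summed to 83500 to 86640 normalised read counts in S2156A and 80100 to 90420 in R2400 tumours. The 20 fibroblast markers summed to 895 to 949 and 668 to 868, and the 14 macrophage and neutrophil markers with a row (of 17) to 1577 to 1734 and 1273 to 1520. None of the 13 and 8 members tested was called. The tested fibroblast markers went both ways, 8 of 13 higher in S2156A tumours, from -0.50 to 1.14 log2. COL1A1, the main fibrillar collagen, was at 81.2 to 85.2 in S2156A and 35.8 to 62.4 in R2400 tumours. DCN, another member, overlapped, with 18.9, 33.4 and 36.95 against 60.1, 29.1 and 40.1. PDGFRA reached at most 1.11 and CD163 was at 0 in all 6. The 13 endothelial markers summed to 204 to 232 and 243 to 267, with PECAM1 called lower at 24.2, 30.6 and 30.6 against 72.7, 50.4 and 57.9 (log2 -1.02 ± 0.18, adjusted p = 0.00125) but CDH5 at most 1.06. The 15 T and NK markers with a row (of 16) summed to 492 to 508 and 588 to 642, with CD8A called lower (log2 -1.12 ± 0.15, adjusted p = 3.47e-05) and CD2 at 0 in all 6. Red-cell markers summed to 145 to 172 and 166 to 473, highest in R2400 replicate 2, where HBB, a haemoglobin chain, reached 428. The 7 adipocyte markers with a row (of 8) summed to 392 to 437 in S2156A and 361 to 410 in R2400 tumours. The 10 muscle and keratinocyte markers with a row (of 12) summed to 450 to 493 and 516 to 589, with the myosins MYH1, MYH2 and MYH4 at 0. The part of host cells in the differences was not tested.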

How the data were processed

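Poly(A) RNA of 12 tumours expressing NOTCH2(WT) or a variant was used, 6 of them for the comparison, and 36 other libraries were not. Per the submitters' processing notes, the authors used STAR, SAMtools and DESeq2 with GRCh38. The read counter, annotation and tool versions were not given in the sources used here. What the authors deposited is a normalised signal: each gene's count over its library's size factor, which corrects for depth and not for gene length. All values (100%) are whole multiples of 1 step within 0.02 steps, and dividing by it recovered 12.7 to 17.1 M reads per library. Rows named as dates (26, at most 0.252% of reads) or 0 (1) were left out. Of the tested names, 13308 matched GENCODE 29, 21 another table entry and 2025 none.

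Differences were tested with limma 3.58.1 (R 4.3.3, trend and robust empirical Bayes, two-sided) on log2(value + 2), which understates changes of low genes, with 1 coefficient per group over the 12 libraries. Of the genes, 15354 reached a value of 10 or more in 3 or more libraries and were tested, and a call is a Benjamini-Hochberg adjusted p under 0.05. Named genes are NOTCH2, KLHL6, the tested NOTCH targets, the 12 genes that rose most and the 12 that fell most (called, no overlap between groups, mean of 50 or more, matched name) and up to 3 called members per list with the smallest p. The compared groups, the 29 gene lists and the 8 marker lists were chosen with earlier results of these data known. The 15 alternatives were TMM scaling, edgeR 4.0.16 quasi-likelihood and DESeq2 1.42.0 on recovered reads, a pseudocount of 0.5 or 8, no filter, a minimum of 50, the 6 libraries alone, a replicate block and leaving out each of the 6 libraries. The method was also run on simulated counts with known changes, without a library that stands apart as R2400 replicate 2 does. That run does not measure how reliable the calls given here are. Antisense partners could share reads, because the strand setting of the counting is not given. The values of 1 gene that the rule names are not reported here.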

Additional observations from a re-analysis of the deposited data

How the results depend on the processing

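The 731 calls became 726 with TMM scaling, 760 with edgeR on recovered reads, 696 with DESeq2, 734 and 721 with pseudocounts of 0.5 and 8, 760 without a filter, 713 at a minimum of 50 and 976 with the 6 libraries alone. Of the 731, 696 were called by edgeR and 627 by DESeq2, and 172 were called under every alternative that tested them. Leaving out 1 library gave 255 to 1051 calls (304, 256 and 291 without S2156A replicates 1, 2 and 3, and 255, 1051 and 624 without R2400 replicates 1, 2 and 3), with 74 to 444 higher and 160 to 607 lower. At 2-fold or more it gave 9 to 26 higher, where all libraries gave 15, and 51 to 131 lower, where all gave 87. The higher ones were 9 with DESeq2, 8 with a pseudocount of 8, 25 without a filter and 8 at a minimum of 50. The lower ones were 46 with a pseudocount of 8 and 51 at a minimum of 50. NOTCH2 kept its call and KLHL6 stayed without one throughout, and no called difference of a named gene changed sign. The cause of these shifts was not tested.

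Deviations of same-numbered libraries from their group means correlated at -0.01, 0.03 and 0.02, and those of differently numbered libraries at -0.05 to 0.04. No pairing by number was seen. It is not excluded, because a correlation over all tested genes could miss a batch that touches few of them. With a replicate block 628 genes were called, 595 of them among the 731. Of the 88 named genes, 8 lost their call under the block, among them FFAR1 (adjusted p = 0.0596), CDT1 (0.0674) and SLAMF6 (0.0685).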
